A study of Homo sapiens with 4 samples.

Results

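The genes described here are the Krüppel-like factors (KLFs) other than KLF1 that the deposited expression table lists under 10 names, namely KLF2, KLF3, KLF4, KLF5, KLF6, KLF7, KLF9, KLF10, KLF11 and KLF13, out of 28412 genes in the table. They were chosen by name, and the family was singled out because KLF2 was among the genes that rose most after knockdown of LDB1, so the difference between the groups is a description for these 10 genes. They entered the fit across all genes, but the calls of that fit are given for them only as a description. The study sequenced total RNA from cells labelled NB4, a human acute promyelocytic leukemia line, in 4 libraries. The sh-NC group (2 libraries) carried a control short hairpin RNA and is also labelled as untreated, and the sh-LDB1 group (2 libraries) carried a hairpin against LDB1. By the study's methods both groups received the hairpin in a lentiviral vector and were selected with puromycin, and the LDB1 hairpin used for sequencing is not named in the sources used here. The labels do not say that the libraries of a group came from separate cultures, so the spread between them may be technical.

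KLF proteins are transcription factors that share 3 zinc fingers at the carboxyl terminus and bind GC boxes and CACCC boxes in DNA. Their amino-terminal parts differ and recruit either activators, such as the acetyltransferases EP300 and CREBBP, or repressors, such as CTBP1 and the SIN3A complex. In blood cells KLF1 drives red cell genes, KLF3 counters it, KLF2 keeps T cells quiescent and restrains myeloid activation, and KLF4 takes part in monocyte differentiation.

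The knockdown was visible in its target. LDB1, the adaptor that joins LMO2, TAL1 and GATA1 into complexes that loop enhancers to promoters, had 135.1 and 120.1 FPKM (fragments per kilobase of transcript, scaled to the reads mapped in each library) in sh-NC and 10.2 and 9.47 FPKM in sh-LDB1, which is 7.73% of the control mean (log2 change -3.56, SE 0.0765, limma adjusted p = 6.93e-05). The library totals behind the FPKM values, recovered from the values themselves, ran from 14746656 to 16182674. The label of the line was checked against markers. The 13 erythroid markers summed to 3924 and 4112 FPKM in sh-NC and to 361.6 and 324.7 FPKM in sh-LDB1. All 12 that could be tested were called lower (10.3% of all genes tested). The 7 promyelocyte markers in the table summed to only 33.3 and 32.2 FPKM in sh-NC and to 56.5 and 56.0 FPKM in sh-LDB1. Of 5 tested, 2 were called higher and 0 lower (9.5% and 10.3% of all genes tested). ELANE, the neutrophil elastase gene, was listed at 0 in 3 of the 4 libraries. These cells thus had abundant erythroid and few promyelocytic transcripts, against the label, which is kept here as the name of the libraries.

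The sequences just before the transcription start are shown for KLF2, which had the largest difference of the family, and for KLF1, whose level went the other way. Each is the 250 bases upstream of the start in RefSeq (GRCh38.p14), 5′ to 3′ on the gene's strand. The windows are chr19:16324576-16324825 (plus strand) for KLF2 and chr19:12887202-12887451 (minus strand) for KLF1. Capitals mark GC boxes (GGGCGG on either strand), MEF2 boxes and GATA sites (GATA after A or T and before A or G, on either strand).
KLF2: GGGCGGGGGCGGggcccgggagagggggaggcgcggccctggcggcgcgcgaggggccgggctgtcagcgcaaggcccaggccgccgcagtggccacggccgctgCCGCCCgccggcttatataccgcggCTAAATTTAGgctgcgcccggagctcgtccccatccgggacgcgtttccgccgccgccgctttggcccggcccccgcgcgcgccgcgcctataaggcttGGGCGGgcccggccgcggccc
KLF1: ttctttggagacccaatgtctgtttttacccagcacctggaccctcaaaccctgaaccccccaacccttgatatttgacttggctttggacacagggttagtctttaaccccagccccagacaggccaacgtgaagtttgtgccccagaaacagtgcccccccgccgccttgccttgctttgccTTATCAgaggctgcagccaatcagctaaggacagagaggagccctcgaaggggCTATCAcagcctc

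KLF2 held 4 GC boxes, of which the first and the second adjoin, and 1 MEF2 box, which begins 120 bases before the start. KLF1 held no GC box but 2 GATA sites. Of 34943 windows of the same length before RefSeq starts, 42.5% held a GC box, 7.60% held at least 4, 2.81% held a MEF2 box and 22.4% held a GATA site. The CACCC box was in 54.7% of all windows and was not found in the KLF2 window. RefSeq windows of 8 of the 10 members were searched, 13 windows in all since some have several starts. KLF3 and KLF10 had none among them, and windows on chr8, where KLF10 lies, were left out of the search of members. A MEF2 box was in 1 of the 13, that of KLF2, and a GATA site in 0. These matches describe the letters of the windows, and binding was not measured.

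KLF2 (ENSG00000127528, chr19:16324826-16328685, plus strand) went from under 1 FPKM to the second highest level in the family. It had 0.398 and 0.638 FPKM in sh-NC and 29.9 and 31.4 FPKM in sh-LDB1. The 2 groups stood far apart, and the spread between the control libraries was small beside that distance. The mean level was 0.518 ± 0.17 FPKM (SD, n = 2) in sh-NC and 30.7 ± 1.08 FPKM (n = 2) in sh-LDB1, a ratio of means of 59.2. On the log2(FPKM + 1) scale used for all log2 changes here the difference was 4.39 (SE 0.0973), a scale that understates changes of genes with low levels. The control level rested on few reads, 13 and 19 against 967 and 960, so that the ratio of reads, scaled to the library totals, was 59.8 with a 95% interval of 42.2 to 87.7 from counting error alone. KLF2 shared none of its 2818 windows of 50 bases with transcripts of other genes, while KLF2P4, a processed pseudogene of it on another chromosome, had 3.48 and 2.38 FPKM in sh-NC and 5.55 and 5.88 FPKM in sh-LDB1. In bulk RNA, a change in the number of cells that express a gene and a change of its RNA per cell cannot be told apart.

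KLF6 (ENSG00000067082, chr10:3775996-3785281, minus strand), a widely expressed early response gene that is also active in macrophages, had 4.71 and 4.98 FPKM in sh-NC and 18.4 and 17.0 FPKM in sh-LDB1. All sh-LDB1 values exceeded all control values. The means were 4.85 ± 0.192 and 17.7 ± 0.941 FPKM (SD, n = 2 each), a 3.65-fold difference (log2 change 1.68, SE 0.0634). KLF7 (ENSG00000118263, chr2:207074137-207173856, minus strand), best known from neurons and grouped with KLF6 by sequence, was much scarcer, at 0.240 and 0.132 FPKM in sh-NC and 0.876 and 0.949 FPKM in sh-LDB1. Its reads numbered 36 and 18 against 130 and 133, and the ratio of reads, scaled to the library totals, was 4.84 (95% counting interval 3.6 to 6.61).

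KLF4 and KLF5 stayed under 1 FPKM in every library. KLF4 (ENSG00000136826, chr9:107484852-107490482, minus strand), one of the reprogramming factors, had 0.287 and 0.278 FPKM in sh-NC and 0.341 and 0.289 FPKM in sh-LDB1, from 15 to 20 reads a library. The ratio of its reads, scaled likewise, was 1.12, and the 95% interval of 0.674 to 1.86 held 1, so no difference was detectable at this depth. KLF5 (ENSG00000102554, chr13:73054976-73077541, plus strand), an activator best known in epithelia, had 0.492 and 0.331 FPKM in sh-NC and 0.721 and 0.645 FPKM in sh-LDB1. The groups did not overlap and the ratio of reads was 1.65 (95% interval 1.15 to 2.39), on 19 to 45 reads a library. KLF2 and KLF4, which act on many of the same genes in endothelium, thus parted, with KLF2 in sh-LDB1 at 30.7 FPKM and KLF4 at 0.315 FPKM.

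KLF10 and KLF11, the paralogs first described as early genes of the transforming growth factor (TGF) beta response, went in opposite directions. KLF10 (ENSG00000155090, chr8:102648784-102655725, minus strand) had 13.8 and 15.3 FPKM in sh-NC and 33.5 and 34.6 FPKM in sh-LDB1, a 2.34-fold difference of means (log2 change 1.17, SE 0.0631). KLF11 (ENSG00000172059, chr2:10042849-10054836, plus strand) had 5.20 and 5.42 FPKM in sh-NC and 2.67 and 2.71 FPKM in sh-LDB1, 1.98-fold lower (log2 change -0.78, SE 0.0674). The 2 groups were apart for both genes. Of the windows of KLF11, 8.08% were shared with transcripts of a noncoding gene that the deposited table does not list. How reads from there were counted is not known.

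KLF9 and KLF13, which share the repressor partner SIN3A with KLF10 and KLF11, differed less. KLF13 (ENSG00000169926, chr15:31326835-31435665, plus strand), known from T cells as an activator of the chemokine gene CCL5, had 5.63 and 5.49 FPKM in sh-NC and 8.80 and 8.34 FPKM in sh-LDB1, a 1.54-fold difference (log2 change 0.54, SE 0.0582). KLF9 (ENSG00000119138, chr9:70384604-70414657, minus strand), a gene that responds to glucocorticoid and thyroid hormones, had 7.67 and 8.96 FPKM in sh-NC and 6.95 and 6.63 FPKM in sh-LDB1. The control libraries differed more from each other than KLF9 differed between the nearer libraries of the 2 groups. Its log2 change was -0.26 (SE 0.087), and -0.10 when the libraries were scaled to the same summed FPKM.

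KLF3 (ENSG00000109787, chr4:38664197-38701517, plus strand), the repressor that recruits CTBP1 and is itself a target of KLF1 in red cell precursors, was the most abundant member in sh-NC and differed least of those in the fit. It had 24.1 and 23.9 FPKM in sh-NC and 21.0 and 21.3 FPKM in sh-LDB1, a ratio of means of 0.882. The log2 change of -0.17 (SE 0.0418) shrank to -0.01 with the libraries scaled to the same summed FPKM. KLF3-AS1, the antisense gene that overlaps KLF3, was at 0.517 to 0.844 FPKM, and without strand in the counting its reads and those of KLF3 cannot be told apart where they overlap.

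**Figure D1:**
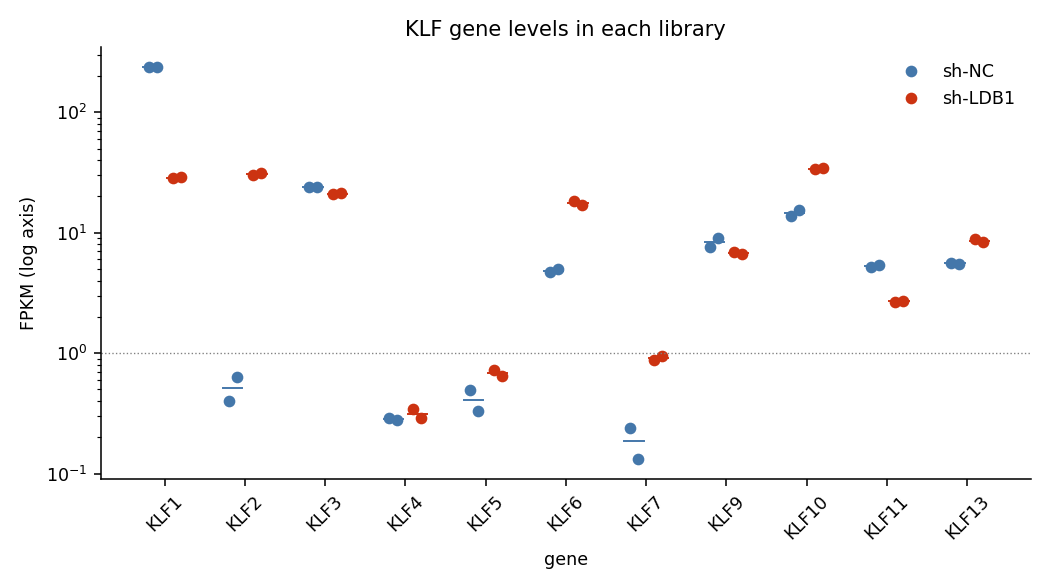
FPKM (log axis) of KLF1 and the 10 members in each library, with sh-NC in blue, sh-LDB1 in red, points for libraries, short bars for group means and a dotted line at 1 FPKM. KLF2 went from a mean of 0.518 to 30.7 FPKM while KLF1 went from 237.5 to 28.6 FPKM.

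In all, 7 of the 10 members reached the mean of 1 FPKM needed for the fit across genes, KLF2 through its sh-LDB1 libraries alone, and KLF4, KLF5 and KLF7 did not reach it. With a call set at a limma adjusted p below 0.05 and a fold above 2 or below 0.5 on the log2(FPKM + 1) scale, that is a log2 change above 1 or below -1, 3 members were called higher (KLF2, KLF6 and KLF10), against 9.5% of the 13300 genes tested, and 0 were called lower, against 10.3%, or 19.8% in either direction. When the fold was left aside KLF13 was also higher (29.9% of genes tested), and KLF3 and KLF11 were lower (37.4% of genes tested, and 67.4% in either direction). The 2 groups did not overlap for any of the 10 members, as for 65.7% of all 28412 genes and 84.6% of the genes tested. The choice of the family rests on this contrast, so nothing is read from these counts. On that scale the member just inside the fold limit was KLF10 at 1.17, and the nearest outside it were KLF11 at -0.78 and KLF13 at 0.54.

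The order of the family changed between the groups. FPKM is a level per length, so genes can be ranked by it. In sh-NC the order was KLF3, KLF10, KLF9, KLF13, KLF11, KLF6, KLF2, KLF5, KLF4 and KLF7, in which KLF13 and KLF11, and KLF2 and KLF5, differed by no more than the sum of their SDs. In sh-LDB1 it was KLF10, KLF2, KLF3, KLF6, KLF13, KLF9, KLF11, KLF7, KLF5 and KLF4, and every neighbouring pair differed by more than that.

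The summed level of the 10 members was 62.6 and 65.4 FPKM in sh-NC and 123.1 and 124.0 FPKM in sh-LDB1. KLF2 made up 0.806% ± 0.24 (SD, n = 2) of that sum in sh-NC and 24.8% ± 0.755 in sh-LDB1. KLF6 went from 7.57% to 14.3% and KLF10 from 22.7% to 27.6%, while KLF3 went from 37.5% to 17.1%. With KLF1 counted in, the sum went the other way, from 301.5 ± 1.81 to 152.1 ± 1.11 FPKM (n = 2 each), since KLF1 had 237.7 and 237.4 FPKM in sh-NC and 28.2 and 29.0 FPKM in sh-LDB1.

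**Figure D2:**
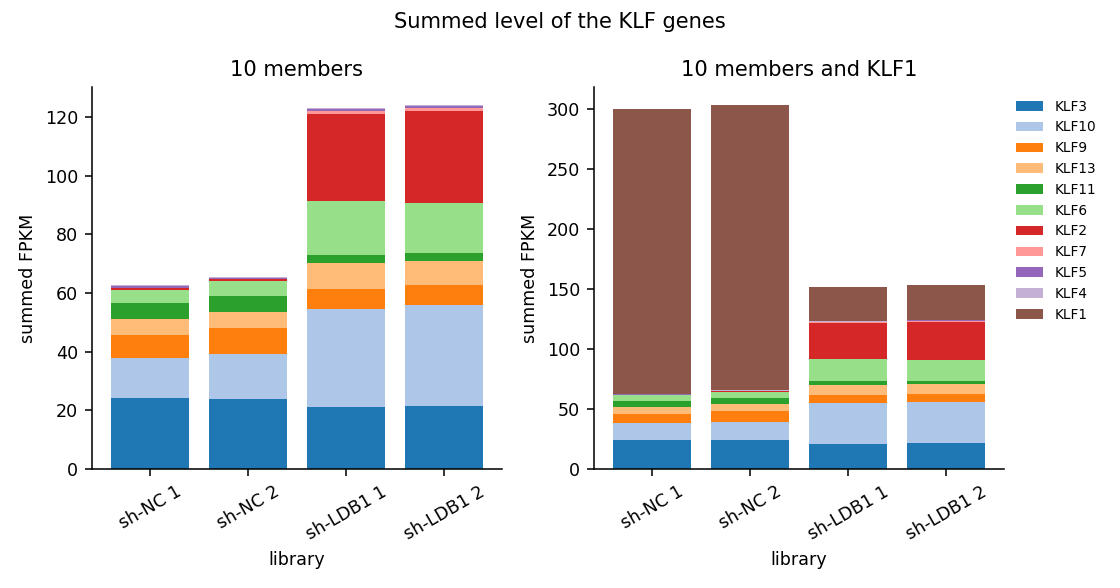
Summed FPKM of the 10 members (left) and of the members with KLF1 (right) in each of the 4 libraries, with the genes stacked in colour. The members summed to 62.6 and 65.4 FPKM in sh-NC and to 123.1 and 124.0 FPKM in sh-LDB1, and with KLF1 the mean sum was 301.5 and 152.1 FPKM.

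The profile of KLF2 over the 4 libraries, as log2(FPKM + 1) centred on each gene's mean, was nearest to those of PTGES (Euclidean distance 0.479), C3 (0.480) and ID3 (0.710) among the 4838 genes whose mean reached 10 FPKM. PTGES makes prostaglandin E, C3 is the central complement component and ID3 is an inhibitor of helix-loop-helix factors. With 4 libraries in 2 groups this likeness describes little more than the size of the difference between the groups.

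Of 17 other KLF and SP genes (the SP factors share the zinc finger type), 15 were in the table and 8 were tested. Of these, 0 were called higher and 1 lower (9.5% and 10.3% of all genes tested). The lower gene was KLF1 (log2 change -3.01, SE 0.0386, limma adjusted p = 6.77e-05). At any fold 1 was higher and 4 were lower (29.9% and 37.4% of all genes tested). SP3 was higher by 0.21, and SP6, KLF15 and SP4 changed by -0.70, -0.55 and -0.43 on the log2 scale. KLF15 was at 0.483 of its control mean as a ratio of FPKM, past the fold limit there but not on the scale of the calls. KLF16 (0.17, adjusted p = 0.0694), SP2 (0.07, adjusted p = 0.302) and SP1 (-0.03, adjusted p = 0.764) did not pass limma's test. The median change of the 8 was -0.23, beside -0.08 over all 13300 genes tested.

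**Figure D3:**
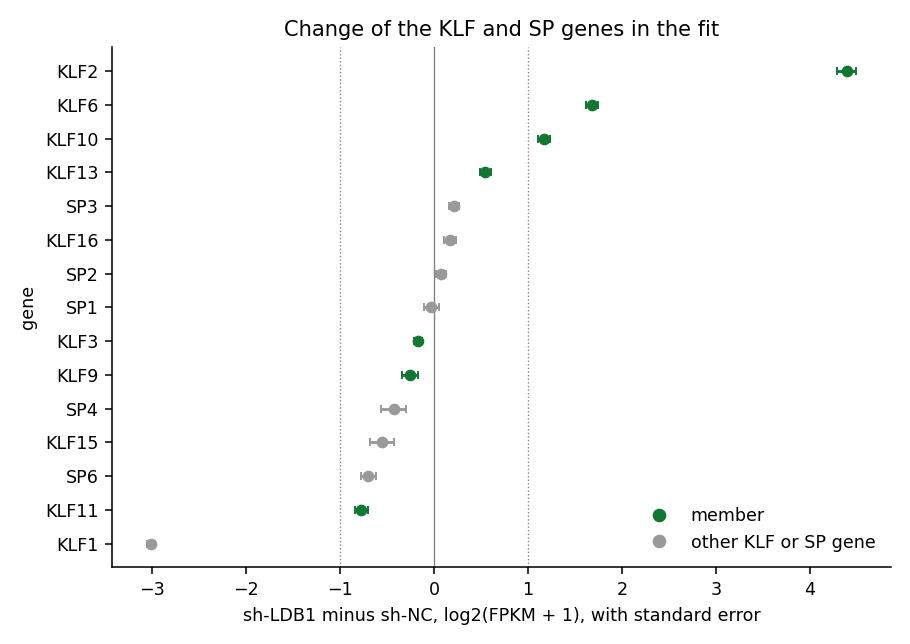
Difference of sh-LDB1 from sh-NC in log2(FPKM + 1) for the 7 members (green) and 8 other KLF and SP genes (grey) in the fit, with bars for the standard error and dotted lines at 1 and -1. KLF2 lies at 4.39, KLF6 at 1.68 and KLF10 at 1.17, and KLF1 at -3.01.

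The proteins that KLF factors work with were next considered. Of 23 cofactors and ubiquitin ligases of KLF proteins, 21 were tested, of which 0 were called higher and 3 lower (9.5% and 10.3% of all genes tested). RBBP4 and RBBP7, histone chaperones of the SIN3 and NuRD deacetylase complexes, had means of 19.5 and 36.0 FPKM in sh-NC and 7.77 and 15.6 FPKM in sh-LDB1 (log2 changes -1.23 and -1.16, limma adjusted p = 0.000145 and 0.000175). SKP2, the substrate receptor of a cell cycle ubiquitin ligase, went from 17.2 and 17.8 to 4.67 and 5.48 FPKM (-1.61, limma adjusted p = 0.000206). By the adjusted p alone, 6 were higher and 11 lower (29.9% and 37.4% of all genes tested), and the median was -0.22. Named after their values were seen, CTBP1, the partner of KLF3, was among the lower ones at 16.3 and 15.1 against 11.2 and 12.5 FPKM. EP300 and CREBBP were among the higher ones (log2 changes 0.58 and 0.49), and SIN3A did not pass the test (0.14, limma adjusted p = 0.0996).

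KLF2 and KLF4 are known targets of the MEK5-ERK5 kinase cascade through MEF2 factors, and KLF2 also of FOXO1. Of 18 genes of these inputs 15 were tested, and 1 was called higher and 0 lower (9.5% and 10.3% of all genes tested). MAP3K2, a kinase at the top of the cascade, had 3.64 and 4.02 FPKM in sh-NC and 15.7 and 15.4 FPKM in sh-LDB1 (log2 change 1.78, SE 0.0641, limma adjusted p = 0.000116). Counting changes of any size, 6 were higher and 6 lower (29.9% and 37.4% of all genes tested), with a median of -0.08, the same as over all genes tested. The genes that follow were named after their values were seen. MAPK7, which encodes ERK5, was higher by 0.78 and MEF2D by 0.52, while FOXO4 and MEF2C were lower (-0.72 and -0.21). MAP2K5, which encodes MEK5, did not pass the test (-0.08, limma adjusted p = 0.473). Nor did FOXO1 (0.20, limma adjusted p = 0.219).

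Of 17 genes known as targets of KLF2 or KLF4 in endothelial, lymphoid or myeloid cells, 15 were in the table and 8 were tested, with 3 called higher and 1 lower (9.5% and 10.3% of all genes tested). Among the higher ones, CDKN1A, the cell cycle inhibitor p21, went from 3.22 and 3.98 to 30.7 and 31.0 FPKM (log2 change 2.80, limma adjusted p = 0.000106), and TXNIP, a thioredoxin inhibitor, from 180.4 and 186.2 to 709.8 and 691.1 FPKM (1.93, limma adjusted p = 7.03e-05). CD69, a T cell activation marker, was lower in sh-LDB1, with group means of 10.2 ± 0.300 and 3.80 ± 0.295 FPKM (SD, n = 2 each, -1.23, limma adjusted p = 0.000269). Without the fold limit 6 were higher and 2 lower (29.9% and 37.4% of all genes tested), and the median was 0.77. The higher ones included THBD and NOS3, the endothelial genes for thrombomodulin and nitric oxide synthase, at 0.79 and 0.67 (named after their values were seen). S1PR1, the receptor through which KLF2 governs the exit of T cells from lymphoid tissue, was at no more than 0.0633 FPKM in any library.

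Of 18 genes of the TGF-beta pathway, which induces KLF10 and KLF11, 14 were tested, with 4 called higher and 1 lower (9.5% and 10.3% of all genes tested). TGFB1, the ligand, went from 87.0 and 91.0 to 243.6 and 245.9 FPKM (log2 change 1.45, limma adjusted p = 9.03e-05). The feedback inhibitors SMAD7 and SKIL, both direct targets of the pathway, rose by 1.20 and 1.07 (limma adjusted p = 0.000375 and 0.000251), as did the coreceptor ENG by 1.20 (named after its values were seen, limma adjusted p = 0.000831). LTBP1, which stores latent TGF-beta in the matrix, went from 17.3 and 17.7 to 1.61 and 1.56 FPKM (-2.84, limma adjusted p = 6.77e-05). Without the fold limit 10 were higher and 3 lower (29.9% and 37.4% of all genes tested), and the median was 0.45. TGFBR2, the receptor that binds the ligand, was at no more than 0.0281 FPKM in any library.

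**Figure D4:**
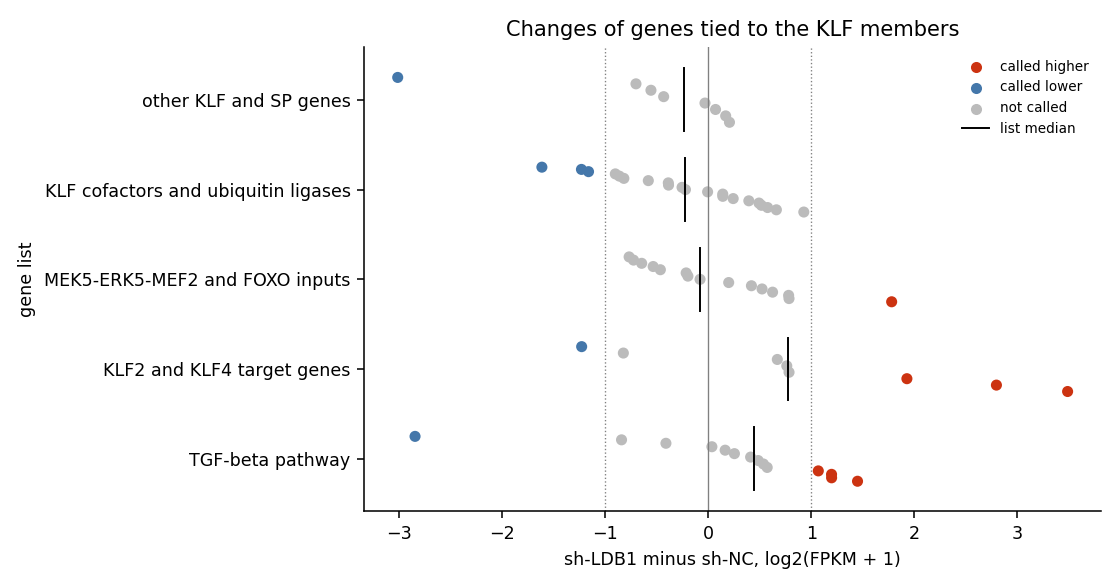
Difference of sh-LDB1 from sh-NC in log2(FPKM + 1) for the tested genes of 5 lists, 1 point a gene, in red where called higher, blue where called lower and grey where not called, with a bar at the list's median and dotted lines at 1 and -1. The medians run from -0.23 for the other KLF and SP genes to 0.77 for the KLF2 and KLF4 target genes.

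The nearest tested genes on either side of each member were compared to see whether neighbours moved too. Of these 20 flanking genes, 4 were called higher and 2 lower (9.5% and 10.3% of all genes tested), with a median of -0.09. AP1M1, an adaptor of vesicle transport that ends 78920 bases before KLF2, had 5.17 and 6.07 FPKM in sh-NC and 13.6 and 14.4 FPKM in sh-LDB1 (log2 change 1.18, limma adjusted p = 0.000495). EPS15L1, an endocytosis gene that lies 26554 bases away on the other side, was at 7.64 and 7.63 against 8.67 and 8.44 FPKM (0.15, limma adjusted p = 0.0599). Beside KLF6, AL450322.1 at 7245 bases had 0.987 and 0.217 FPKM in sh-NC and 3.19 and 4.01 FPKM in sh-LDB1. On the other side of KLF6, at 1177972 bases, AKR1C1 was also higher (log2 change 1.47, limma adjusted p = 0.000107). AKR1C1 is an aldo-keto reductase with close paralogs that may share its reads. TBC1D1, a regulator of vesicle traffic beside KLF3, and AZIN1, a regulator of polyamine synthesis beside KLF10, were lower (-1.48 and -1.29, limma adjusted p = 0.000137 and 0.000252). KLF2-DT, the noncoding gene that runs away from the KLF2 start on the opposite strand, was listed at 0 in 3 libraries and at 0.247 FPKM in the other.

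Some markers of other cells differed between the groups. Of the monocyte and macrophage markers 7 were in the table, with sums of 0.430 and 0.410 FPKM in sh-NC and at least 11.8 FPKM in sh-LDB1. Most of the sh-LDB1 sum was ITGAX and ITGAM, at no more than 0.0863 FPKM in sh-NC and at least 4.89 FPKM in sh-LDB1. Both reached the filter through the sh-LDB1 libraries alone, so their calls carry no weight. CD14 and CSF1R were at no more than 0.350 FPKM in any library. CD68 went the other way, from 0.141 and 0.062 FPKM in sh-NC to 0 in sh-LDB1. The 8 lymphocyte markers in the table summed to 25.7 and 23.3 FPKM in sh-NC and 52.2 and 54.9 FPKM in sh-LDB1. Most of it was CD3D. Of 4 tested, 2 were called higher and 0 lower (9.5% and 10.3% of all genes tested). Of these, NKG7, at 0.264 and 0.508 FPKM in sh-NC, reached the filter through sh-LDB1 alone, so its call carries no weight. The 4 endothelial markers in the table summed to no more than 0.742 FPKM in any library, and none was tested. With the erythroid sum, which fell, these values went along with the KLF2, KLF6 and KLF10 differences, and their part in those was not tested.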

How the data were processed

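RNA from 4 libraries, 2 of each group, was analysed. The deposited table holds FPKM per gene, which the authors made from reads mapped with HISAT2 2.0.5 to hg38 (per the submitters' processing notes), and the counting tool, annotation and strand setting are not given in the sources used here. Low values of 8909 genes with a single transcript were whole multiples of 1 read (91.5% to 91.9% of values within 0.05), which gave each library's total, and, with a length fitted for each gene, whole reads within 0.02 in all 4 libraries for 98.2% of genes. For 89.3% of genes the fitted length was within 10% of that in GENCODE release 44, from which coordinates were taken (28193 of 28412 genes matched). Counting intervals (exact, 95%) cover counting error only. No molecular identifiers were used.

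Groups were compared with limma 3.58.1 (R 4.3.3) on log2(FPKM + 1), with a mean-variance trend, over the 13300 genes whose mean reached 1 FPKM, and p-values were adjusted by Benjamini-Hochberg over all of them. A call needed an adjusted p below 0.05 and a fold above 2 or below 0.5 on the log2(FPKM + 1) scale. The procedure was tested on simulated data. Same-numbered libraries did not deviate together (correlation 0.02 over 13300 genes). Motifs and 50-base windows were searched with Python 3.11.15. Alternatives covered pseudocounts, filters, scaling, a replicate block, the threshold, left-out libraries and voom on recovered reads.

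The members and the gene lists (other KLF and SP genes, cofactors and ligases, upstream inputs, KLF2 and KLF4 targets, TGF-beta pathway, flanking genes, markers) were chosen with earlier results of these data known. Named were LDB1, the members, other KLF and SP genes that reached 1 FPKM, from each other list the 4 called genes with the smallest adjusted p (or all where fewer), the leading genes of marker lists and the 3 genes nearest to KLF2 in profile. CD14 is on both the target and the monocyte list. Some genes that the rule would name are not reported here.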

Additional observations from a re-analysis of the deposited data

How the results depend on the processing

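The 7 members in the fit kept their direction under every alternative run, with log2 changes of 4.27 to 5.90 for KLF2, 1.63 to 1.87 for KLF6, 1.10 to 1.34 for KLF10, 0.51 to 0.69 for KLF13, -0.98 to -0.64 for KLF11, -0.36 to -0.10 for KLF9 and -0.19 to -0.01 for KLF3, while KLF4, KLF5 and KLF7 had a value only without the filter (0.04, 0.26 and 0.69). Scaling the libraries to the same summed FPKM moved the changes by a median of 0.15 and the share of lower calls among all calls from 52.0% to 37.9% (1628 higher, 995 lower). SP1 turned to 0.13 under that scaling, and leaving out 1 library gave -0.13 (without sh-LDB1 replicate 1) to 0.072 (without sh-LDB1 replicate 2). Over all genes, calls numbered 1697 higher and 1880 lower with a pseudocount of 0.1, and 1742 and 1917 with voom on recovered reads, an alternative chosen after seeing the data. A mean of at least 5 FPKM gave 710 higher, no fold limit 3983 higher and 4978 lower, and a test against the fold itself 568 and 581. Leaving out 1 library gave 1190 to 1360 higher and 1336 to 1450 lower. Same-numbered libraries share only a number, and the replicate block gave 1274 higher and 1386 lower.

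Without the fold limit 2 members were lower, the counts higher and lower were 1 and 4 for other KLF and SP genes, 6 and 11 for cofactors and ligases, 6 and 6 for inputs, 6 and 2 for targets, 10 and 3 for the TGF-beta pathway, and 6 flanking genes were lower. The test against the fold left 2 of the 3 higher members (not KLF10), and gave 1 lower cofactor, 0 lower targets, 1 higher gene of the TGF-beta pathway, and 1 higher and 1 lower flanking gene. A mean of at least 5 FPKM left 2 higher genes in the TGF-beta pathway and 2 among flanking genes. A pseudocount of 0.01 and voom gave 2 lower among other KLF and SP genes and 2 in the TGF-beta pathway. Both of these and a pseudocount of 0.1 gave 2 higher inputs and 2 lower targets. Summed scaling gave 1 higher and 2 lower cofactors, since RBBP7 came to -0.99. With KLF1 in the pool, the KLF2 share was 0.172% in sh-NC and 20.2% in sh-LDB1. Beyond fewer genes or a stricter limit, the cause was not tested. The adjusted p rose above 0.05 for SP4 in 7 alternatives and for SP3 and KLF15 in 4 each, and fell below 0.05 for KLF16 in 3 and for SP2 in 1. Under about 20 reads a library, as for KLF4, counting error limits what can be seen.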
